A study of Rattus norvegicus with 174 samples.

Results

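The heart was examined 6 h after inhalation of phosphine, a fumigant gas, in male Sprague-Dawley rats, an outbred stock. The arrays were chosen by tissue, exposure and time in their titles, which gave 6 of the 30 heart arrays, in a series that also holds 30 arrays of each of 4 other solid tissues and 24 of blood: 4 hearts of exposed rats (Rat758, Rat760, Rat761 and Rat789) and 2 hearts of rats that breathed air (Rat762 and Rat763). The exposed rats had inhaled 660 ppm for 32.2 min in a whole-body chamber. The product of 21252 ppm x min was 0.91 of the LCt50, the median lethal product of concentration and time. The air rats had inhaled 0 ppm for the same time. All weighed 300 to 400 g, and were killed under ketamine and xylazine anaesthesia. The spread between rats was estimated over all 30 heart arrays, which also held 4 exposed and 4 air hearts at each of 1, 3 and 24 h. Each array measured total RNA of 1 rat, and 13438 genes were compared. Arrays have no read depth, and here the 2 air hearts limit the precision.

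Phosphine blocks mitochondrial respiration, chiefly at cytochrome c oxidase, and disturbs the rhythm and contraction of the heart. The working heart draws most of its ATP from oxidation of fatty acids, and the choice between fatty acids and glucose is set partly by pyruvate dehydrogenase kinases. Heart muscle under load or injury is known to raise transcripts of Z disc and titin-associated proteins, and injured tissue to raise chemokines, which draw in monocytes.

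Signals are log2 values, and a difference of 1 is a 2-fold difference. Each difference is the exposed mean less the air mean, followed by ± its standard error from limma, with p-values adjusted by Benjamini and Hochberg over all genes, and genes were called at an adjusted p under 0.05. Values of the exposed hearts are always in the order Rat758, Rat760, Rat761, Rat789, and those of the 6 h air hearts in the order Rat762, Rat763.

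Several of the arrays carried transcripts typical of other tissues, whose source was not tested. The mean of 17 hepatocyte markers lay 3.90 above the median of the heart arrays in exposed Rat760 and 1.37 above it in exposed Rat761. It also lay 2.88 and 3.05 above it in both air hearts, and near it in exposed Rat758 (-0.45) and Rat789 (-0.32). Albumin (Alb) thus read 3.43, 12.20, 10.08 and 2.68 in the exposed hearts and 11.52 and 11.59 in the air hearts. Fat cell markers were high in exposed Rat760 (mean of 8 markers, 7.47) and air Rat763 (7.34) and ran from 5.33 to 5.58 in the other exposed hearts. Ucp1, the uncoupling protein of brown fat, read 3.20, 9.98, 3.36 and 3.13 in the exposed hearts against 6.46 and 9.82 in air. Exposed hearts also differed in atrial transcripts: the atrial light chain Myl7 read 9.90, 12.56, 12.42 and 11.37, and the natriuretic peptide Nppa 10.52, 12.53, 12.51 and 11.77, both lowest in Rat758, against 12.56 and 12.61 for Myl7 and 12.49 and 12.48 for Nppa in air. All 4 measured mesothelium markers were lower on average in the exposed group, with array means of 4.56 to 6.07 against 6.04 and 6.14. The 12 cardiomyocyte markers had means of 12.23 to 12.59 in exposed and 12.60 and 12.61 in air hearts. None of the 47 genes called below against 6 h air is a marker on the 17 cell type lists. The hepatocyte markers varied so widely between hearts that a call was unlikely. Their median difference was -1.89, with 0 of 17 at an unadjusted p under 0.05 in limma. With the hepatocyte mean of each array as a covariate, a check added after the data were seen, 47 of the 47 genes called below were called, among 114 in all. Exposed arrays of 3 and 24 h, with hepatocyte means 8.27 and 7.94 above the heart median, weigh most on that covariate. The part of other tissues in the 6 h differences was therefore not tested. In whole tissue, fewer cells of a type and less RNA per cell cannot be told apart. As a measure of RNA decay, the 3' less the 5' signal of beta-actin, GAPDH and hexokinase was 0.539 ± 0.135 (SD, n = 4) in exposed and 0.527 ± 0.084 (SD, n = 2) in air hearts (two-sided exact permutation p = 0.8, where 4 against 2 allow none under 0.0667).

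**Figure D1:**
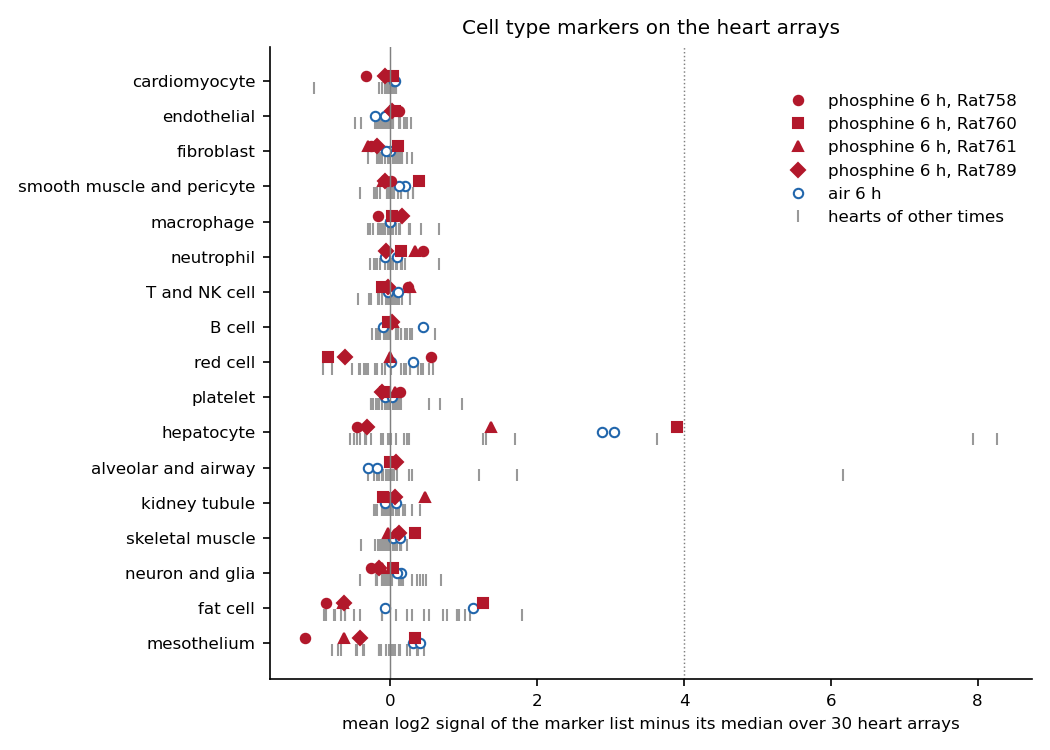
Mean log2 signal of each cell type marker list minus its median over the 30 heart arrays, on the x axis, by list. Red symbols are the 4 exposed hearts of 6 h, open circles the 2 air hearts of 6 h, ticks the hearts of other times, and the dotted line marks 4. The hepatocyte list spreads widely: exposed Rat760 stands at 3.90 and the air hearts at 2.88 and 3.05, while the cardiomyocyte list stays between -0.33 and 0.06 on the arrays of 6 h.

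At 6 h after phosphine, 47 genes differed from the 6 h air hearts (0.35% of genes), 25 higher (0.186%) and 22 lower (0.164%). The rises were larger: 20 of the 25 higher genes but 3 of the 22 lower genes changed at least 2-fold, with median log2 changes of 1.48 and -0.80. The higher genes held striated muscle genes (Klhl40, Ankrd2, Flnc, Lmcd1), regulators of fatty acid use (Pdk4, Ucp3, Angptl4), and genes of inflammation and cell adhesion (Ccl2, Sele, Tnfrsf12a, Pvr). The lower genes held the nucleic acid demethylases Alkbh2 and Alkbh5 and the nucleoside transporter Slc29a1. The number of calls rested on few hearts: without air Rat762 or air Rat763 it was 3 each, without exposed Rat761 11 and without exposed Rat789 27, although each of the 47 kept its direction in every case. That direction could not change when 1 rat was left out, because exposed and 6 h air values of the 47 did not overlap. After quantile normalization within heart the split was 27 higher and 8 lower, and after median centring of the arrays 29 and 5.

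At an unadjusted p under 0.05 there were 1259 genes (9.37%). In the 47 called genes the exposed and 6 h air values did not overlap, which was true of 24.6% of all genes. Set against all 14 air hearts of the 4 times, the exposed values of 36 of the 47 still did not overlap, 21 higher and 15 lower, against 3.13% of all genes. The 11 that overlapped were the higher genes Ucp3, Fkbp5, Foxk1 and Mrtfa and the lower genes Shprh, Setmar, Eid2, Znhit3, Rbbp6, Pcnx4 and Usp20. In a check added after the data were seen, the exposed hearts were compared with the 12 air hearts of 1, 3 and 24 h alone, a group that shares no air rat with the 6 h comparison but the same exposed rats. There 765 genes (5.69%) were called, among them 47 of the 47 and in the same direction, which is 6.14% of the 765. The 6 h air hearts themselves had 0 genes called against the other air hearts (limma, 353 genes at an unadjusted p under 0.05).

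**Figure D2:**
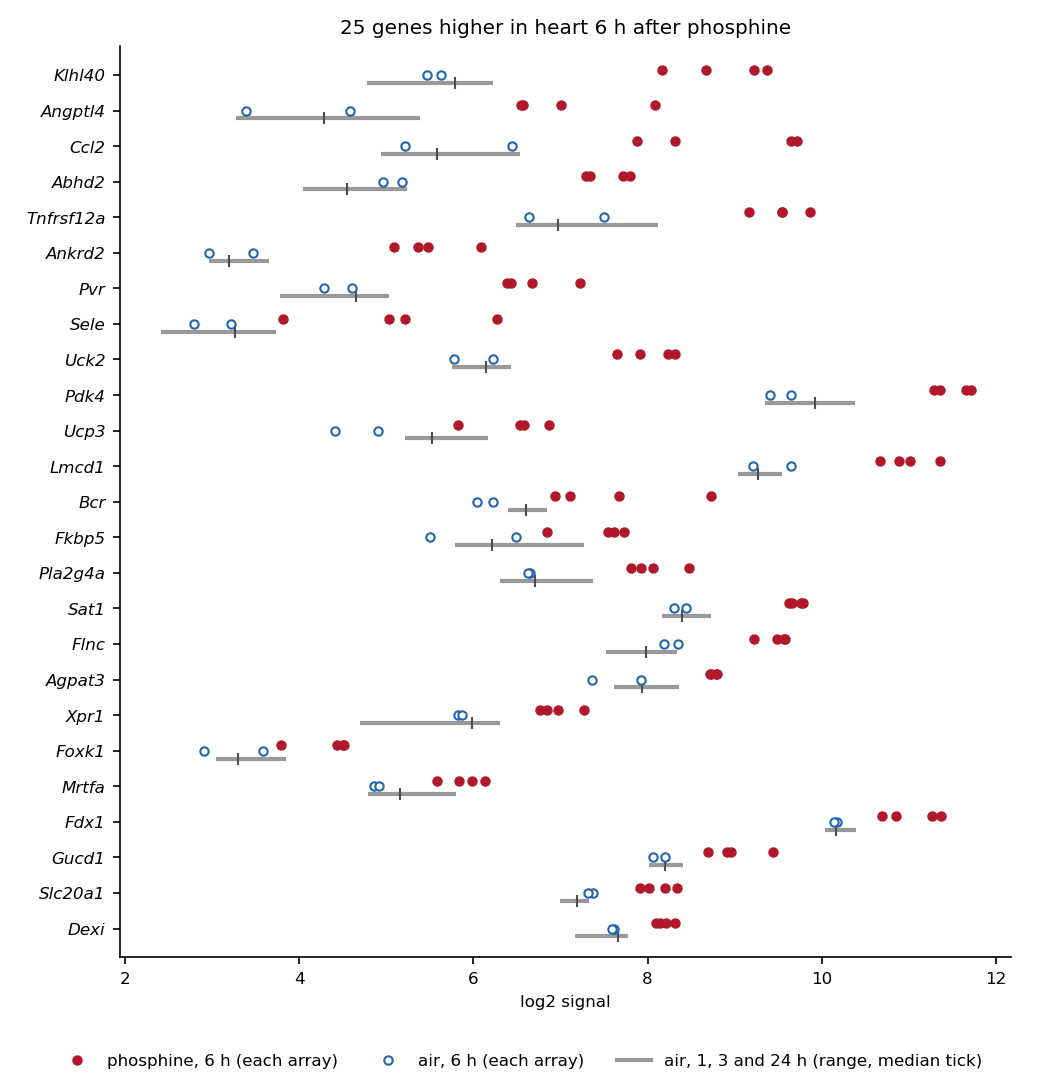
Log2 signal of the 25 genes called higher, ordered by the size of the difference. Red points are the 4 exposed hearts of 6 h, open circles the 2 air hearts of 6 h, and grey bars the range of the 12 air hearts of 1, 3 and 24 h with a tick at their median. All red points lie right of both open circles, and for Ucp3, Fkbp5, Foxk1 and Mrtfa at least 1 lies within or left of the upper end of the grey bar.

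Genes of striated muscle and its repair came first. Klhl40, a kelch protein of striated muscle that steadies thin filament proteins, read 8.67, 8.17, 9.22 and 9.37 in the exposed hearts and 5.47 and 5.63 in the 6 h air hearts. Every exposed heart was far above both air hearts, and Rat760 was the lowest of them. The difference was 3.31 ± 0.68 (adjusted p = 0.0249), the largest of the 47 (9.89-fold). Ankrd2, an ankyrin repeat protein that binds titin and responds to stretch, read 5.48, 5.09, 6.09 and 5.37 against 3.47 and 2.97 in air, which is below the median of all probe sets (4.41). It was high in all 4 exposed hearts and highest in Rat761, with a difference of 2.29 ± 0.44 (adjusted p = 0.0191). Flnc, filamin C, which links actin at the Z disc, read 9.49, 9.22, 9.58 and 9.57 against 8.35 and 8.19. Its exposed values lay close together, and the difference was 1.20 ± 0.25 (adjusted p = 0.0275). Lmcd1, a LIM domain cofactor that binds the cardiac factor Gata6, read 11.01, 10.67, 11.36 and 10.89 against 9.65 and 9.21, a difference of 1.55 ± 0.25 (adjusted p = 0.00782). Tnfrsf12a (Fn14), the receptor of the cytokine TWEAK, read 9.54, 9.17, 9.87 and 9.54 against 7.50 and 6.64, with Rat760 lowest again, and differed by 2.46 ± 0.38 (adjusted p = 0.00472). Mrtfa, a coactivator of serum response factor that answers to actin, read 6.13, 5.98, 5.83 and 5.58 against 4.86 and 4.92, and its difference of 0.99 ± 0.21 was 1 of the smaller rises.

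Of the 26 measured genes of a list of cardiac stress and fetal genes, 4 rose and 0 fell against 6 h air: Klhl40, Ankrd2, Flnc and Tnfrsf12a. The median of the list was 0.27, against -0.02 over all genes. The lists were chosen with earlier results of these data known, so their counts and medians describe and do not test. Classical fetal and load markers were not among the 4 called genes. Nppa differed by -0.66 ± 0.59 and Acta1, skeletal actin, by 0.24 ± 0.16, both short of the threshold in this comparison. Of 24 genes of Z disc and titin upkeep and of 16 sarcomere subunits, none was called in limma (3 and 1 at an unadjusted p under 0.05; medians 0.05 and -0.04, the latter 0.04 after median centring).

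For 3 of the muscle genes the 5' flank, which is shown because these muscle genes rose together, held a match to at least 1 of the motifs searched. The stretches end at the base before the annotated start and are from RefSeq, build GRCr8, all on the + strand, with matches in capitals. For Klhl40 (chr8:130318643-130318792) these are 2 AP-1 matches, with first bases at -128 and -81, and a MEF2 match at -29, which is itself TATA-like. For Flnc (chr4:58999397-58999546) it is the MCAT match at -121, and for Lmcd1 (chr4:146948743-146948992) the CRE match at -192.
Klhl40: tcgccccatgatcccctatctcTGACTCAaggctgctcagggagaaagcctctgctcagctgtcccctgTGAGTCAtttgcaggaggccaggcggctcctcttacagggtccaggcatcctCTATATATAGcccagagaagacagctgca
Flnc: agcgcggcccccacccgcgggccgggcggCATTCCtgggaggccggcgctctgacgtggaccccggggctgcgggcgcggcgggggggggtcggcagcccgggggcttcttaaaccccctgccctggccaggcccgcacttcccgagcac
Lmcd1: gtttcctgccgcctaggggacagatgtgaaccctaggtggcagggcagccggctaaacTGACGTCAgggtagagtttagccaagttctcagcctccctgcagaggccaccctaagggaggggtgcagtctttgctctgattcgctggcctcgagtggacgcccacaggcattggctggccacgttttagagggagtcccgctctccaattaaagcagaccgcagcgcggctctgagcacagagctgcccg
AP-1 was searched as TGANTCA, CRE as TGACGTCA, E-box as CACGTG and MCAT as CATTCC, with NF-kB, CArG, GRE, PPRE and MEF2 by their usual consensus, on both strands of the 250 bases before the start. No match shown overlaps another, and a missing match says only that these letters are not in the window. A promoter was matched for 42 of the 47 called genes and for 11057 genes in all. Of the 22 promoters of higher genes, 1 each (4.55%) held AP-1, CRE, MCAT, NF-kB and MEF2, against 4.80%, 2.69%, 10.3%, 4.21% and 1.54% of all promoters. None of the 22 held an E-box (7.85% of all), CArG (1.22%), GRE (0.109%) or PPRE (0.307%).

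Regulators of fuel use formed the second group. Pdk4, the kinase that switches off pyruvate dehydrogenase and so spares glucose, read 11.29, 11.36, 11.66 and 11.71 in exposed and 9.65 and 9.40 in air hearts. The exposed values lay close together and well above both air values, and the difference of 1.98 ± 0.24 (adjusted p = 0.000276) had the smallest adjusted p of all genes. Pdk4 was also the 1 gene of the 47 called without each of the 6 rats in turn. Ucp3, an uncoupling protein of muscle mitochondria, read 5.82, 6.87, 6.54 and 6.58 against 4.91 and 4.41, a difference of 1.79 ± 0.37 (adjusted p = 0.0249). Here the 6 h air hearts were low: the other air hearts ran from 5.21 to 6.17, and against them the difference was 0.88 ± 0.24 (adjusted p = 0.0234). Angptl4, a secreted inhibitor of lipoprotein lipase, read 6.55, 7.01, 8.08 and 6.57 against 3.39 and 4.58. Rat761 was highest, all 4 exceeded both air hearts, and the difference was 3.07 ± 0.69 (adjusted p = 0.0486). These were 3 of the 35 measured genes of fatty acid oxidation and PPAR targets, where 0.186% of all genes were called higher. Of the 35, 26 had a difference above 0 (74.3%, against 46.6% of all genes), with a median of 0.11 against -0.02. Genes of glucose uptake and glycolysis had 0 of 24 called in limma (1 at an unadjusted p under 0.05, median 0.07). None of 25 cytochrome c oxidase subunits and assembly factors was called in limma (1 at an unadjusted p under 0.05, median -0.01, and 0.01 and 0.06 after quantile normalization and median centring). Fdx1, the mitochondrial ferredoxin that passes electrons to iron-sulphur and P450 enzymes, read 10.69, 10.85, 11.26 and 11.37 against 10.18 and 10.14. It rose by 0.88 ± 0.15 (adjusted p = 0.013) in hearts where it was already strongly expressed.

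Several enzymes outside these lists were also among the 47. Abhd2, a serine hydrolase, read 7.34, 7.29, 7.80 and 7.72 against 5.18 and 4.96, with a wide gap between the groups, and rose by 2.47 ± 0.53 (adjusted p = 0.0337). Pla2g4a, the cytosolic phospholipase that frees arachidonic acid, read 7.81, 7.93, 8.47 and 8.06 against 6.65 and 6.63 and rose by 1.42 ± 0.27 (adjusted p = 0.0191). Agpat3, an acyltransferase of phospholipid synthesis, rose by 1.12 ± 0.21, with exposed values between 8.72 and 8.80. Sat1, the rate-limiting enzyme of polyamine breakdown, read 9.62, 9.66, 9.76 and 9.79 against 8.44 and 8.30, with little spread in either group, and rose by 1.34 ± 0.28 (adjusted p = 0.0263). Uck2, which salvages uridine and cytidine, read 7.91, 7.65, 8.24 and 8.31 against 6.22 and 5.78 and rose by 2.03 ± 0.31 (adjusted p = 0.00456). A fall in the nucleoside carrier Slc29a1 (ENT1) stood beside it: 6.69, 7.03, 6.54 and 6.53 against 7.45 and 7.48, a difference of -0.77 ± 0.14 (adjusted p = 0.0177). Among phosphate carriers, the importer Slc20a1 rose by 0.77 ± 0.16 and the exporter Xpr1 by 1.11 ± 0.21.

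In the third group, of inflammation and adhesion, Ccl2, the main chemokine of monocytes, read 9.71, 8.32, 9.65 and 7.88 against 6.44 and 5.22. Rat758 and Rat761 stood well above Rat760 and Rat789, all 4 above the air hearts, and the difference was 3.06 ± 0.68 (adjusted p = 0.0458). Sele, E-selectin, which endothelium shows after cytokine stimulation, read 5.22, 5.03, 6.27 and 3.82 against 3.22 and 2.79. It was far higher in Rat761 than in Rat789, whose value of 3.82 lay just above the highest of the other air hearts (3.74), and the difference was 2.08 ± 0.37 (adjusted p = 0.0138). The means of 10 endothelial markers were 7.96 to 8.04 in the exposed and 7.73 and 7.85 in the 6 h air hearts, with 8 of the 10 above 0 in difference and none called, and their part in the value of Sele was not tested. Over all 14 air hearts these means ran from 7.73 to 8.06. Pvr, a cell surface receptor of the nectin family, read 6.67, 6.39, 7.23 and 6.43 against 4.61 and 4.29 and rose by 2.23 ± 0.41 (adjusted p = 0.018). Ccl2 was the 1 of 27 measured chemokines called (median 0.12), Sele the 1 of 15 endothelial adhesion genes (median 0.15) and Tnfrsf12a the 1 of 29 cytokines and receptors (median 0.22). No macrophage or neutrophil marker was called against 6 h air in limma (2 and 0 at an unadjusted p under 0.05). The 12 macrophage and 7 neutrophil markers had array means of 6.25 to 6.57 against 6.41 and 6.42, and of 3.25 to 3.76 against 3.25 and 3.41. Against all air, 2 of the 12 macrophage markers were higher, Cd163 (0.82 ± 0.22) and Mrc1 (0.49 ± 0.13), both of tissue-resident cells. The median of the list was 0.10, and others such as Adgre1 (-0.50 ± 0.20) and Aif1 (-0.27 ± 0.20) were below 0 without a call. The neutrophil genes S100a8, Csf3r, Cxcr2, Mmp8, Mmp9 and Camp stayed under the median signal of all genes compared, taken over the whole series, on every heart array.

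Fkbp5, a cochaperone that glucocorticoids induce, read 6.85, 7.55, 7.61 and 7.73 against 5.50 and 6.49, a difference of 1.44 ± 0.28 (adjusted p = 0.0191). The 2 air hearts were nearly 1 apart, and the other air hearts ran from 5.79 to 7.27 (median 6.21), so that exposed Rat758 lay inside their range. With Pdk4 and Angptl4, which are also on the list of fatty acid oxidation, it made 3 called of 22 measured glucocorticoid responsive genes. Of all genes 0.186% were called higher, and the median of the list was 0.39 against -0.02. Bcr rose by 1.48 ± 0.31, with Rat758 highest (8.73, 6.94, 7.67 and 7.11 against 6.23 and 6.04). Foxk1, a forkhead transcription factor, rose by 1.06 ± 0.22, and Gucd1 and Dexi by 0.87 ± 0.17 and 0.58 ± 0.12.

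The rats did not respond to the same degree in all genes. Among the 25 higher genes Rat761 held the highest exposed value in 12, while Rat760 held the lowest in 12 and Rat758 in 9. The SD among the 4 exposed hearts ran from 0.04 to 1.00, with a median of 0.31, against 0.14 for the lower genes. Hepatocyte and fat cell markers were highest in Rat760, and their part in its lower values was not tested. Rat761 had the lowest 3' less 5' signal, 0.337 against 0.591 to 0.616 in the other exposed hearts and 0.586 and 0.467 in air. Hexokinase stood apart most (0.679 in Rat761, 1.29 to 1.526 in the other exposed hearts). The part of RNA integrity in the values of Rat761 was not tested. Without Rat760, 57 genes were called.

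The 22 lower genes fell by less. Alkbh2, which repairs alkylated bases in DNA, read 4.63, 4.53, 4.72 and 4.02 in exposed and 5.87 and 5.86 in air hearts. The air values were nearly equal, every exposed value lay far below them, and the difference was -1.39 ± 0.25 (adjusted p = 0.0177). Alkbh5, which removes methyl groups from adenine in RNA, read 8.13, 8.16, 8.11 and 8.05 against 8.66 and 8.56. The difference was small but the values tight (-0.50 ± 0.10, adjusted p = 0.0191), though 2 of its 5 probe sets had the opposite sign. Ptpn13, a tyrosine phosphatase, read 5.46, 5.60, 5.59 and 5.31 against 6.41 and 6.74 and fell by 1.08 on the log2 scale (adjusted p = 0.0206). Kazald1, a secreted protein related to the binding proteins of insulin-like growth factors, read 4.99, 5.12, 5.06 and 5.20 against 6.18 and 6.01 and fell by 1.00 (adjusted p = 0.0275). Gstcd read 5.99, 5.80, 6.33 and 6.01 against 6.68 and 7.16, a difference of -0.89 ± 0.18 (adjusted p = 0.0238). Fxyd6, a regulator of the sodium pump, read 6.63, 6.48, 6.38 and 6.27 against 7.49 and 7.21, a difference of -0.91 ± 0.19 (adjusted p = 0.0249).

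The other 15 lower genes had differences between -0.99 (Usp20, a deubiquitinase) and -0.49 (Ap3m1, an adaptor of vesicle traffic). They include Shprh, a ubiquitin ligase of DNA damage tolerance (-0.94 ± 0.19), Rbbp6, a ubiquitin ligase that binds the retinoblastoma protein (-0.52 ± 0.11), Tmem86a (-0.79 ± 0.16) and Dennd2c, an activator of Rab GTPases (-0.98 ± 0.19). For Shprh, Rbbp6 and Tmem86a, 1 other probe set had the opposite sign. No list had a gene called lower.

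**Figure D3:**
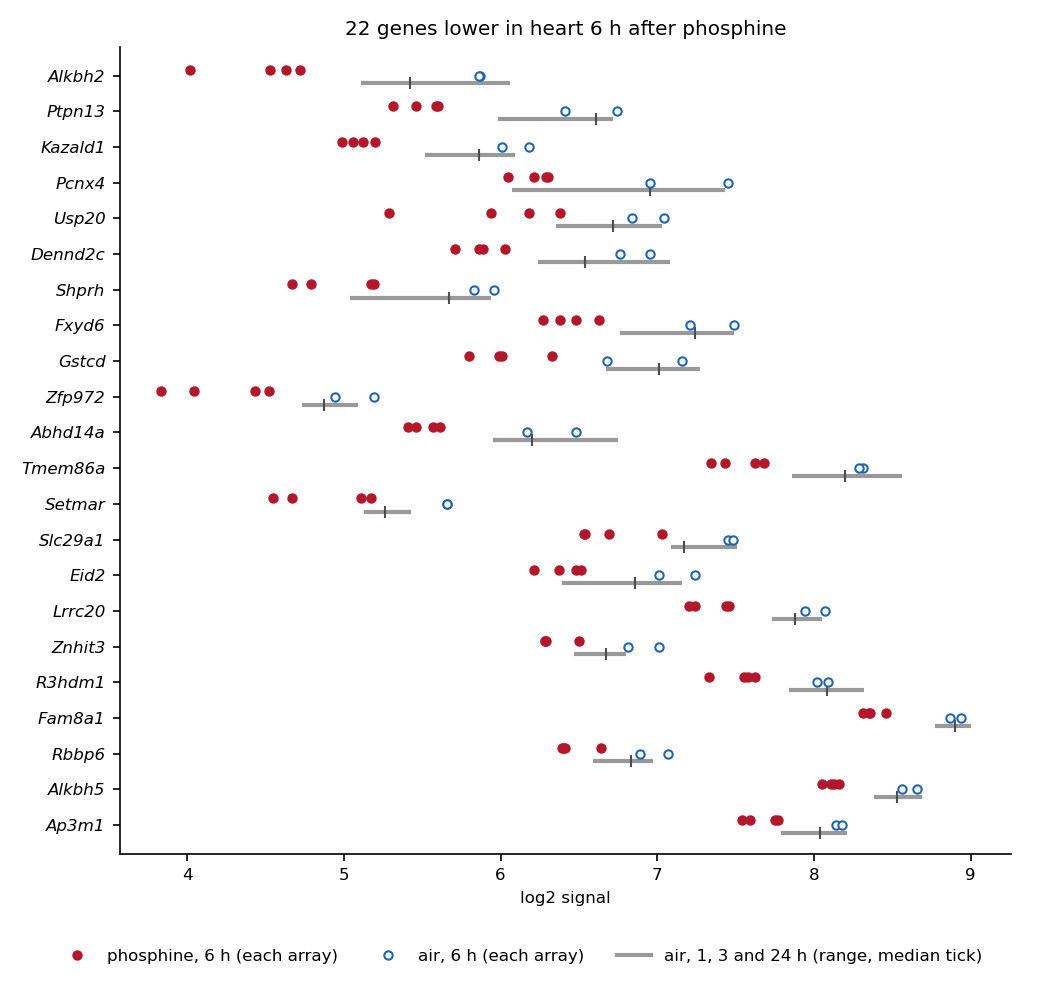
Log2 signal of the 22 genes called lower, drawn as for the higher genes: red points, exposed hearts of 6 h; open circles, air hearts of 6 h; grey bars, range and median of the 12 air hearts of 1, 3 and 24 h. All red points lie left of both open circles, by the widest margin for Alkbh2, and for 15 of the 22 genes they also lie left of the grey bar.

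Against all 14 air hearts, which gives a more precise air mean but mixes hours of the day and shares the 2 air hearts of 6 h, 794 genes were called (5.91%), 391 higher (2.91%) and 403 lower (3%). Without Rat761 there were 441, without Rat789 489 and without Rat758 523. It called 3 of 27 chemokines, 6 of 29 cytokines and receptors, 2 of 15 endothelial adhesion genes, 3 of 19 genes of coagulation and matrix proteases and 2 of 29 matrix genes, all higher (medians 0.11, 0.19, 0.15, 0.13 and 0.04). Ccl7, a chemokine beside Ccl2, read 7.90, 6.58, 7.49 and 6.32 against 5.38 and 4.64 in 6 h air and 2.98 to 5.69 in the other air hearts, 2.75 ± 0.47 (adjusted p = 0.000441). Timp1, an inhibitor of matrix metalloproteases, read 9.87, 9.40, 10.36 and 9.54 against 7.96 and 7.64 and 7.39 to 7.88, with every exposed heart above every air heart (2.14 ± 0.28, adjusted p = 2.41e-05). Plaur, the urokinase receptor, differed by 1.43 ± 0.27, the protease Adamts1 by 1.34 ± 0.23 and tenascin C (Tnc) by 1.05 ± 0.25. Among cytokine genes, Il1b (1.15 ± 0.31), Tnf (0.44 ± 0.12, with 1 of its 2 probe sets of the opposite sign), Stat3 (0.81 ± 0.12) and its feedback inhibitor Socs3 (1.38 ± 0.37) were higher, and among adhesion genes P-selectin (Selp, 0.62 ± 0.14). None of these was called against the 6 h air hearts alone, where Timp1 came nearest (1.99 ± 0.46, adjusted p = 0.0536).

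Of the cardiac stress and fetal list 13 of 26 genes were higher than all air and 1 lower, with a median of 0.43 against 0.00 over all genes. Its members were chosen with earlier results of these data known, so the count is a description and not a test. Nmrk2, a kinase of NAD synthesis that damaged muscle induces, read 8.58, 9.11, 8.46 and 8.25 against 7.12 and 7.0 in 6 h air and 5.44 to 7.0 in the other air hearts, 2.09 ± 0.32 (adjusted p = 0.000144). Xirp1, which binds actin at repairing intercalated discs, differed by 1.22 ± 0.27, the small heat shock protein Hspb1 by 0.88 ± 0.18, Fhl1 by 0.82 ± 0.14, Rcan1, an inhibitor and target of calcineurin, by 0.72 ± 0.11, and Csrp3, muscle LIM protein, by 0.42 ± 0.09. Skeletal actin (Acta1), not called against 6 h air, was also among the 13 (0.38 ± 0.10). Klhl38 was the 1 lower (-1.05 ± 0.25). In the 6 h air hearts some of these already stood at the top of the air range: Ankrd23 read 7.33 and 6.94 there and 5.44 to 6.88 in the other air hearts, and its difference was 1.14 ± 0.29 against all air but 0.31 ± 0.35 against 6 h air. The Z disc genes Myot (1.08 ± 0.30), Pdlim3 (0.82 ± 0.14) and Synpo2 (0.41 ± 0.12) were the 3 called of 24, and 2 of the 5 probe sets of Synpo2 had the opposite sign.

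Of 12 metallothioneins and zinc transporters 3 were higher than all air (median 0.08), and of 18 genes of peroxide and superoxide removal none was called. Mt2A, a metallothionein that binds zinc, read 9.30, 8.91, 9.56 and 9.17 against 6.43 and 7.29 in 6 h air and 5.58 to 7.35 in other air, 2.96 ± 0.45 (adjusted p = 0.000121), with no overlap. Its difference from 6 h air alone was 2.38 ± 0.69 (adjusted p = 0.158). Mt1 differed from all air by 1.71 ± 0.35, heme oxygenase (Hmox1) by 1.33 ± 0.28 and thioredoxin reductase (Txnrd1) by 0.52 ± 0.09. Hmox1 and Txnrd1 were the 2 called of 22 NRF2 targets, whose median was 0.03. Of 27 immediate early genes 5 were higher than all air: Myc (1.62 ± 0.37), Fosl1 (1.13 ± 0.25), Nr4a3 (1.21 ± 0.36), Ier5 (0.95 ± 0.19) and Egr3 (0.42 ± 0.13). None of the 27 was called against 6 h air in limma (8 at an unadjusted p under 0.05). Of the 27, 25 had a difference above 0 (92.6%, against 46.6% of all genes), and the median was 0.70. Growth arrest genes Gadd45a (1.02 ± 0.12) and Cdkn1a (0.70 ± 0.21) were 2 of 17 p53 targets. Rnd1, which loosens actin fibres, read 7.26, 6.45, 7.47 and 6.02 against 5.61 and 4.5 and 3.56 to 5.39, 2.37 ± 0.32 (adjusted p = 2.88e-05).

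Of 34 genes of calcium handling and ion channels 2 were higher and 2 lower than all air (median -0.01), and of 20 adrenergic, muscarinic and cholinesterase genes 2 and 1 (median 0.10). Kcne1, a subunit of the slow repolarizing potassium channel, read 4.63, 4.78, 5.05 and 5.71 against 3.40 and 3.34 in 6 h air and 3.22 to 4.01 in other air. All 4 exposed hearts were higher than every air heart, and the difference was 1.54 ± 0.29 (adjusted p = 0.00099). Kcnj5 was higher (0.95 ± 0.23), while its partner in the muscarinic potassium channel, Kcnj3, was lower (-1.12 ± 0.28), as was Kcnd2 of the transient outward current (-0.92 ± 0.18). Kcnj3 read 3.98, 5.54, 5.31 and 4.67 against 6.16 and 6.18 in 6 h air, with the lowest value in Rat758, the heart lowest in Myl7, and the part of atrial tissue in it was not tested. Kcnj5 read 7.27 and 7.72 in the 6 h air hearts and differed from them by 0.23 ± 0.32. The receptor kinases Grk2 (0.42 ± 0.11) and Grk5 (0.53 ± 0.15) were higher and the phosphodiesterase Pde3a (-0.59 ± 0.18) lower. Of 15 atrophy and autophagy genes 4 were lower and 1 higher. The atrophy ligases Fbxo32 (-0.72 ± 0.19) and Trim63 (-0.67 ± 0.13), with Mul1 (-0.47 ± 0.14) and the autophagy kinase Ulk1 (-0.52 ± 0.12), were lower, and Gabarapl1 of the autophagosome was higher (0.55 ± 0.11).

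The remaining stress lists held few calls or none. Of 25 genes of the integrated stress response, Atf4 (0.34 ± 0.10), its central factor, and the amino acid carrier Slc7a5 (0.97 ± 0.18) were higher than all air and Vldlr (-0.53 ± 0.12) lower. None of 21 genes of the unfolded protein response was called in either comparison. Against 6 h air 4 differences were above 0 (19% of the list, against 46.6% of all genes). The median was -0.14, or -0.06 after median centring, with 0 at an unadjusted p under 0.05 in limma. Among 21 heat shock chaperones Hspb1 and the muscle chaperone Hspb7 (1.08 ± 0.27) were higher than all air and Chordc1 lower. Of 20 interferon response genes 2 had a difference above 0 against 6 h air (10%, against 46.6% of all genes). The median was -0.39, with 0 calls in limma (2 at an unadjusted p under 0.05). Against all air the median was -0.11, with 0 calls. Ifit1, 1 of the 20, read 3.69, 3.41, 4.11 and 5.18 against 5.75 and 5.21 in 6 h air, a difference of -1.38 ± 0.47 (adjusted p = 0.242). Cox10, which builds the heme of cytochrome c oxidase, was the 1 of its 25 genes called against all air, by -0.31 ± 0.09. Plin2, which coats lipid droplets, was 0.80 ± 0.17 from all air, and the glycolytic kinase Hk2 and lactate carrier Slc16a1 stood at 0.53 ± 0.14 and 0.29 ± 0.09.

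For clock genes the choice of air hearts decided the value. Npas2 differed from all air by -1.31 ± 0.28 (adjusted p = 0.00344), but the 6 h air hearts read 5.52 and 5.06, the exposed hearts 4.77, 4.65, 5.48 and 5.27 and the other air hearts 5.75 to 7.10, and the difference from 6 h air was -0.24 ± 0.32 (adjusted p = 0.916). Cry2 likewise differed by 0.62 ± 0.15 from all air and by 0.03 ± 0.19 from 6 h air. Of 19 clock genes 0 were called against 6 h air in limma (3 at an unadjusted p under 0.05).

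The other times have rats and air controls of their own. Of the 25 higher genes 3 were called higher at 1 h, 13 at 3 h and 0 at 24 h, and of the 22 lower genes 1, 6 and 0 were lower. Called genes in all numbered 179 at 1 h (1.33%), 448 at 3 h (3.33%) and 11 at 24 h (0.0819%). Exposed Rat729 at 3 h and Rat741 at 24 h had hepatocyte marker means 8.27 and 7.94 above the heart median. Alveolar and airway markers of exposed Rat749 at 24 h lay 6.16 above it. These arrays stayed in, and their part in the counts at 3 and 24 h was not tested. The genes called at both 3 and 6 h are 40.4% of the 6 h genes and 4.24% of the 3 h genes, and at 1 and 6 h 8.51% and 2.23%. Median differences of the 25 genes were 0.26, 0.69, 1.48 and 0.16 at 1, 3, 6 and 24 h, where the value at 6 h is that by which they were chosen. Pdk4 (1.14 ± 0.20 at 1 h, 1.42 ± 0.20 at 3 h) and Sat1 (1.33 ± 0.23 and 1.30 ± 0.23) were already higher at 1 h, with Slc20a1. Klhl40 (2.10 ± 0.56), Angptl4 (2.87 ± 0.57), Abhd2 (1.93 ± 0.44) and Fkbp5 (2.0 ± 0.23) were among those called at 3 h.

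Of the 47 genes 28 were called at 6 h and at neither 1 nor 3 h, among them Sele, Ankrd2 and Ccl2. Sele differed by -0.05 ± 0.30 at 1 h, -0.42 ± 0.30 at 3 h and -0.20 ± 0.30 at 24 h. The test of its effect at 6 h minus that at 3 h gave 2.51 ± 0.48 (adjusted p = 0.0653), so the times were not shown to differ. Ankrd2 differed by 0.59 ± 0.36 at 3 h and 1.55 ± 0.36 at 24 h (adjusted p = 0.112 at 24 h). Ccl2 stood at 1.55 ± 0.56 at 1 h and 1.46 ± 0.56 at 3 h, without a call, and at 0.06 ± 0.56 at 24 h. Over all genes, the effect at 6 h differed from that at 1 h in 10 genes (0.0744%), from that at 3 h in 0 and from that at 24 h in 0 (limma, 890 and 1007 genes at an unadjusted p under 0.05). Of the 47 genes Fdx1 alone was among the 10: it differed by -0.12 ± 0.13 at 1 h and 0.88 ± 0.15 at 6 h, a change of 1.01 ± 0.20 (adjusted p = 0.0483). The 10 also held Lpar6 (1.66 ± 0.31, adjusted p = 0.0481), Cited2 (1.19 ± 0.22) and Sh3bp5l (1.15 ± 0.22) upwards, and Akap12 (-2.22 ± 0.39, adjusted p = 0.0481), Irf2bp2 (-1.82 ± 0.27), Tcim (-1.47 ± 0.29) and Cdt1 (-1.09 ± 0.21) downwards. Akap12, a scaffold of protein kinase A, thus differed from air by 1.89 ± 0.25 at 1 h and by -0.33 ± 0.30 at 6 h. The 10 fell to 0 without air Rat762 or Rat763, to 2 without Rat758 or Rat789 and to 4 without Rat760.

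**Figure D4:**
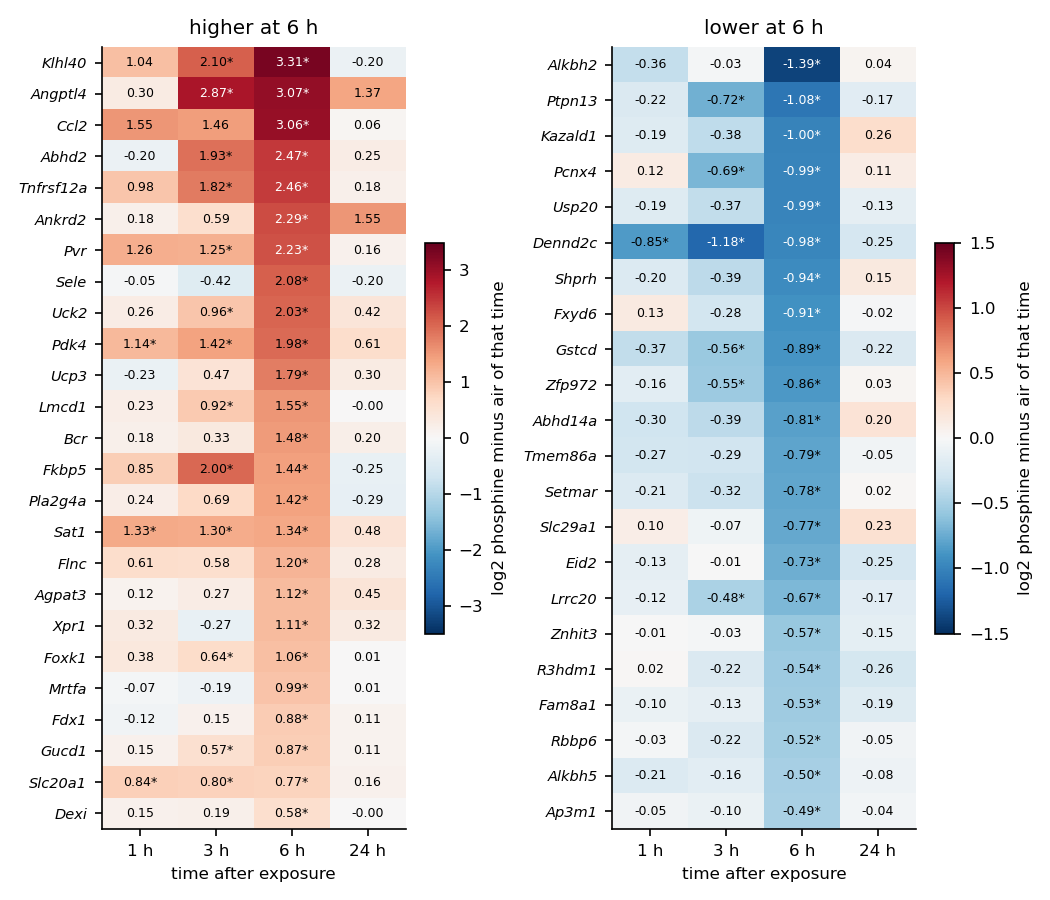
Log2 differences, phosphine minus air of the same time, of the 25 higher (left) and 22 lower (right) genes at 1, 3, 6 and 24 h, printed in each cell and coloured by the scale at the side. A star marks an adjusted p under 0.05 at that time, and the 6 h column carries a star throughout because it chose the genes. At 3 h 13 of the left and 6 of the right genes carry a star, at 24 h none. Exposed Rat729 (3 h), Rat741 and Rat749 (24 h), whose arrays carried transcripts of another organ, are included.

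The same rats gave brain, kidney, liver and lung, each compared with its own 2 air samples at 6 h. The 25 genes higher in heart had median differences of 0.04 in brain, 0.03 in kidney, 0.02 in liver and 0.15 in lung. Genes called in all numbered 0 in brain (0%; limma, 5.64% at an unadjusted p under 0.05), 47 in kidney (0.35%), 30 in liver (0.223%) and 13 in lung (0.0967%). Of the 47 heart genes Tnfrsf12a (2.17 ± 0.23, adjusted p = 5.09e-06), Fkbp5 (1.37 ± 0.29, adjusted p = 0.0318) and Sat1 (0.54 ± 0.12, adjusted p = 0.0345) were called in kidney. The effect in heart minus the mean effect of the other 4 tissues was called for 170 genes (1.27%), and with the rat as a block, taking heart minus the mean of the other tissues within each rat, for 17 (0.127%). Without air Rat763 there were 24, without air Rat762 38 and without Rat761 79. Of the 25 higher genes 23 were called in this test, which they enter with an advantage since the heart difference chose them, and 10 with the block. Klhl40 differed by 3.17 ± 0.45 (adjusted p = 4.11e-07), and with the rat as a block by 3.17 ± 0.67 (adjusted p = 0.0535). Uck2 stayed called in both (1.87 ± 0.24, and 1.87 ± 0.27, adjusted p = 0.00156 with the block), as did Pdk4 (1.99 ± 0.46, and 1.99 ± 0.34, adjusted p = 0.00864) and Sele (1.87 ± 0.23, and 1.87 ± 0.36, adjusted p = 0.0318). Ankrd2 stood at 2.26 ± 0.29, and 2.26 ± 0.46 (adjusted p = 0.0423) with the block, with differences of -0.14 to 0.24 in the other tissues. Of the 22 lower genes 11 were called, 6 with the block, among them Alkbh2 (-1.41 ± 0.22, and -1.41 ± 0.25, adjusted p = 0.011). Fkbp5 was not called in the test (0.81 ± 0.35, adjusted p = 0.352), nor was Dexi (0.44 ± 0.16, adjusted p = 0.219).

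**Figure D5:**
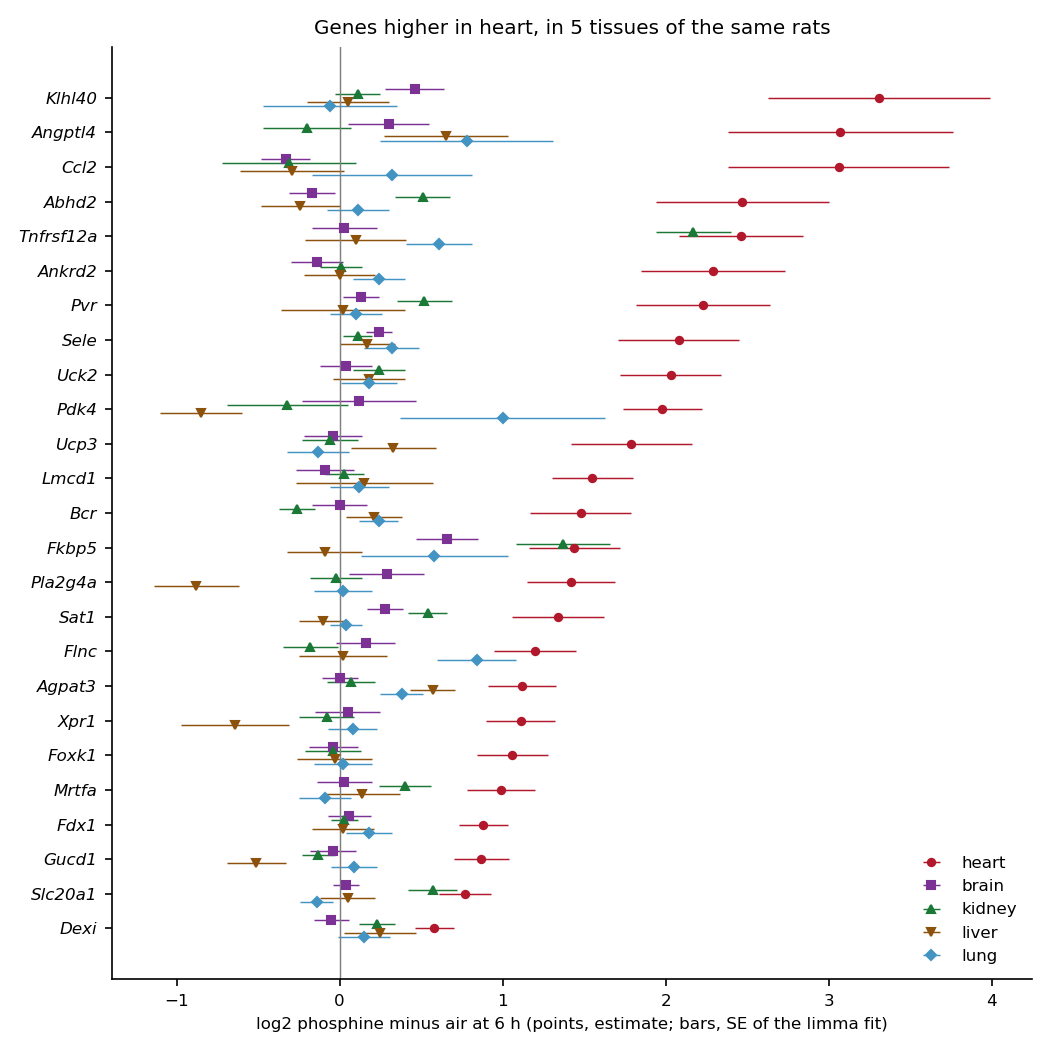
Log2 difference, phosphine minus air at 6 h, of the 25 genes higher in heart, on the x axis, in heart (red circles), brain, kidney, liver and lung of the same rats; bars are standard errors from limma. Most points of other tissues lie near 0, while the kidney points of Tnfrsf12a (2.17) and Fkbp5 (1.37) lie beside the heart points.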

How the data were processed

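Total RNA of rat tissue was labelled with biotin (GeneChip 3' IVT Plus, per the labels' protocols) and hybridised to 3' expression arrays. The deposited table holds log2 values for 31139 probe sets on each array, from RMA and Partek per the submitters' processing notes, whose versions are not stated there. The medians of the heart arrays ran from 4.25 to 4.43. Of the probe sets 19063 name 1 gene, 572 several and 11407 none, and 97 are controls. Each of 13438 genes was read from 1 probe set, that with the highest mean signal.

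A model with the 8 groups of the 30 heart arrays was fitted in limma 3.58.1 (R 4.3.3) with empirical Bayes and p-values adjusted over all genes. It gave the contrasts with 6 h air, among air hearts and between times. The exposed hearts were set against all air, and against air of the other times, in separate fits with that air as 1 group. The tissue contrast was fitted over the 150 arrays of 5 solid tissues, and again with the rat as a block. The pairing comes from the same animal giving all 5 tissues, and correlations of the deviations of heart with those of another tissue of the same rat ran from -0.286 to 0.355. The heart groups share no rat. Each heart array is 1 rat, so p-values measure the spread between rats. RNA integrity was compared by an exact permutation test. The fit was tested on simulated data.

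Named genes are all genes called against 6 h air. From the comparison with all air come the up to 12 strongest rises and 12 strongest falls above the median of all probe sets. From each gene list come the called members and the 4 with the smallest p, and from each test of a difference up to 8. The text picks from these. The members, lists and rules were chosen with earlier results of these data known. The comparison with the 12 air hearts of other times and the hepatocyte covariate were chosen after seeing the data. Promoters are RefSeq sequences, matched by gene. Alternatives were other normalizations, a filter on low signals, the mean of probe sets, other eBayes settings, array weights, omitting the arrays rich in markers of other organs, and omitting each rat in turn. None of the arrays omitted for markers of other organs was of 6 h.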

Additional observations from a re-analysis of the deposited data

Results flagged for a closer look

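Among 125 genes and 17 marker lists, 1 exposed heart stood far from the other 3 in 7 cases, where chance gives about 1 in 20 groups. The 7 cases are about the number that this rate gives, so they were not shown to exceed chance. Rat760 was the far array for the fat cell markers (7.47), Ucp1 of brown fat (9.98), the Z disc gene Pdlim3 (10.30), the muscle chaperone Hspb7 (10.19) and the forkhead factor Foxk1 (3.79). Rat758 was the far array for Rbbp6 (6.64) and Znhit3 (6.50), both called lower than air, where its value was the highest of the exposed hearts.

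The effect at 6 h differed from that at 1 h by a test of the difference in Fdx1 (1.01), Lpar6 (1.66), Cited2 (1.19) and Sh3bp5l (1.15), which were higher at 6 h. It was lower at 6 h in Akap12 (-2.22), Irf2bp2 (-1.82), Tcim (-1.47) and Cdt1 (-1.09).

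The effect in heart differed from the mean effect of the other tissues in 54 of the named genes, many of them chosen by the heart difference. The tissues come from the same rats, and with the rat as a block 16 of the 54 were called: Alkbh2, Alkbh5, Ankrd2, Fam8a1, Foxk1, Gstcd, Gucd1, Lmcd1, Pdk4, Pvr, Rbbp6, Sele, Tmem86a, Uck2, Ucp3 and Xpr1. The values below are those without the block. Among muscle and stress genes the log2 difference was 3.17 for Klhl40, 2.26 for Ankrd2, 0.99 for Flnc, 1.5 for Lmcd1, 1.40 for Xirp1, 0.87 for Mrtfa and -1.15 for Klhl38. Among fuel, lipid and mitochondrial genes it was 2.69 for Angptl4, 1.99 for Pdk4, 1.77 for Ucp3, 2.41 for Abhd2, 1.57 for Pla2g4a, 0.86 for Agpat3, 0.81 for Fdx1 and -0.63 for Cox10. Inflammation, adhesion and matrix genes gave 3.21 for Ccl2, 1.90 for Ccl7, 1.87 for Sele, 0.80 for Selp, 2.03 for Pvr, 1.73 for Tnfrsf12a, 1.73 for Timp1, 1.27 for Plaur, 1.15 for Adamts1 and 1.45 for Tnc. Early response and signalling genes gave 1.70 for Myc, 1.20 for Fosl1, 0.89 for Gadd45a, 1.74 for Rnd1, 1.43 for Bcr, 1.08 for Foxk1, 0.58 for Cited2, 0.79 for Grk5, 1.81 for Kcne1 and -1.24 for Kcnj3. Metabolite and carrier genes gave 1.87 for Uck2, 1.15 for Sat1, 1.26 for Xpr1, 0.64 for Slc20a1, 1.02 for Gucd1 and -0.66 for Slc29a1. Other lower genes were Alkbh2 (-1.41), Alkbh5 (-0.59), Ptpn13 (-0.95), Kazald1 (-1.06), Gstcd (-1.17), Shprh (-0.92), Rbbp6 (-0.71), Tmem86a (-0.84), Eid2 (-0.63), Fam8a1 (-0.51), Smim5 (-1.29), Ncapg2 (-1.0) and Cited4 (-1.16).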

How the results depend on the processing

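No named gene changed its direction under an alternative run for it. For the 47 against 6 h air, leaving out 1 rat could not change it, since their values did not overlap. The count of 47 genes against 6 h air was 560 with array quality weights, 113 without arrays carrying transcripts of another organ, 114 with the hepatocyte mean as a covariate, 4 in a fit of only the 6 arrays and 794 against pooled air; leaving out 1 rat gave 3 to 57. The cause was not tested, except that fewer arrays enter the fit of 6. The arrays left out for transcripts of another organ had a marker mean 4 or more above the heart median. They were Rat729 (3 h), Rat741 and Rat749 (24 h). Every array of 6 h stayed in, Rat760, Rat762 and Rat763 included. The 794 genes against all air became 1580 with weights, and 441 to 747 without 1 rat. The 0 genes among air hearts became 1 after quantile normalization, median centring, the filter or a trended prior, 19 with weights, and 0 to 1 without 1 rat. The 10 genes of 6 h minus 1 h became 1 with the mean of probe sets, 6 with the trended prior, 100 with weights, 35 without arrays of another organ, and 0 to 9 without 1 rat. Median centring moved the median of all genes by 0.13 for 6 h minus 1 h and by 0.15 for 6 h minus 24 h. The 0 genes of 6 h minus 3 h became 2 (quantile), 1 (centring), 4 (filter), 3 (mean of probe sets), 4 (trended prior), 24 (weights), and 0 to 3 without 1 rat. For 6 h minus 24 h, called genes made up 0% of those tested, and 0.0248% with the filter, 0.0521% with the mean of probe sets, 1.29% with weights, 0.0521% without arrays of another organ, and 0 to 0.0149% without 1 rat. The 170 genes of heart minus other tissues became 17 with the rat as a replicate block, and 24 to 189 without 1 rat, where Rat763 gave 24, Rat762 38 and Rat761 79. The difference in RNA integrity, 0.013, turned to -0.023 for beta-actin alone, -0.001 for GAPDH alone, and ranged from -0.047 to 0.08 without 1 rat, below 0 without Rat758, Rat760, Rat763 or Rat789. The 2 air hearts limit the precision, and signals near background understate a difference.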
